A study of Mus musculus with 32 samples.

Results

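Retnlb and 6 goblet cell genes (Tff3, Muc2, Fcgbp, Agr2, Spdef and Zg16) were followed through the distal colon of mice with and without Myd88, before and after exposure to a colon carcinogen and a colitis-inducing agent. The 7 genes were taken by symbol from the array's annotation, out of 18193 genes measured in all, and each was read from its probe set with the highest mean over the 32 arrays. Retnlb, Tff3, Muc2, Fcgbp and Spdef have 1 such probe set each, Agr2 has 2 and Zg16 has 3. Total RNA of each sample was hybridised to 1 Affymetrix mouse array, and the samples are described as biological repeats. The groups are 10 treated wild-type, 10 treated Myd88-/-, 6 untreated wild-type and 6 untreated Myd88-/- samples, all labelled distal colon and C57 BL6NCr, with the knockout line backcrossed close to congenic with that strain. Myd88 encodes the adaptor protein through which Toll-like receptors and the receptors for interleukin-1 and interleukin-18 signal. Treated mice received azoxymethane (AOM), a colon carcinogen, at 10 mg/kg by intraperitoneal injection at 6 to 8 weeks of age, then from 1 week later 2% DSS (dextran sodium sulfate, an agent that damages the epithelial lining) in the drinking water for 3 days, and were then killed. Their disease state is labelled colitis. The labels used here give no age or housing for the untreated mice, no sex, and no scan date, so age and handling cannot be told apart from treatment. They do not say which part of Myd88 was removed, or in which cells.

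Goblet cells are the mucus-secreting cells of the intestinal epithelium. They pack the gel-forming mucin into granules together with small secreted proteins, and the released gel lines the colon and keeps bacteria away from the cell surface. Retnlb encodes RELMβ, a resistin-like protein that goblet cells secrete into the lumen and that is known to be induced by bacterial colonization, by type 2 cytokines and by intestinal inflammation. In RNA from whole tissue, a change in the number of goblet cells and a change in RNA per goblet cell cannot be told apart.

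Levels are given as log2 probe set signal after quantile normalization, which gives every array the same distribution of values, and are shown as mean ± SD. Arrays of 1 group correlated at r = 0.935 to 0.985 over genes. Myd88 was lower in the knockouts, at 7.67 ± 0.11 (n = 6) against 8.40 ± 0.10 (n = 6) in untreated samples, with no overlap, and at 8.00 ± 0.31 (n = 10) against 8.46 ± 0.12 (n = 10) in treated samples, with overlap (limma, adjusted p = 0.000916 and 0.00105). Whether its probe set lies in the removed part of the gene is not given in the sources used here. Markers of the colon epithelium, 9 genes including Epcam, Krt8 and Cdx2, had list means of 11.13 to 11.96 and none was at the floor on any array, in keeping with the labelled tissue. Squamous epithelium markers, 11 keratinocyte genes, varied far more: the list mean ran from 4.47 to 11.26 in treated wild-type, 4.54 to 7.92 in treated knockout, 4.22 to 6.13 in untreated wild-type and 4.22 to 8.08 in untreated knockout samples. Treated wild-type repeats 1 and 2 stood highest, at 11.26 and 9.76. The skeletal muscle list ran from 5.25 to 10.11 in treated wild-type and from 5.32 to 9.49 in treated knockout samples.

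Retnlb had the widest range of the 7 genes. In untreated wild-type colon its signal was at or next to the lowest value that the deposited table holds, log2 3.32, in every mouse: the lowest value was 3.32, the median 3.32 and the highest 3.70, with 5 of 6 samples at that floor. Untreated knockout samples ran from 3.32 through a median of 4.13 to 6.19, with 2 of 6 at the floor. Treated wild-type samples ran from 3.32 through a median of 5.18 to 9.37, with 2 of 10 at the floor. Treated knockout samples ran from 3.32 through a median of 9.40 to 11.56, with 1 of 10 at the floor. Treated knockout samples thus took most of the high values, 5 of 10 of them above the highest treated wild-type sample, but the groups overlapped because treated knockout repeat 6 was at the floor and treated wild-type repeat 5 reached 9.37.

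The group means of Retnlb stood in the order untreated wild-type (3.39 ± 0.16, n = 6), untreated knockout (4.45 ± 1.24, n = 6), treated wild-type (5.53 ± 2.07, n = 10) and treated knockout (8.73 ± 2.68, n = 10). Treated knockout exceeded treated wild-type by 3.20 ± 0.87 (SE) on the log2 scale, a 9.20-fold difference with a 95% interval of 1.42 to 4.99 log2 units (limma, adjusted p = 0.0146 over all 18193 genes). It exceeded untreated knockout by 4.28 ± 1.01, or 19.4-fold (limma, adjusted p = 0.00323), with 8 of 10 treated samples above the highest untreated one. In wild-type mice the difference between treated and untreated was 2.14 ± 1.01 and did not pass (limma, adjusted p = 0.310), although 7 of 10 treated samples lay above the highest untreated one. The neighbouring pair of untreated groups differed by 1.07 ± 1.13 (limma, adjusted p = 0.946), and untreated knockout against treated wild-type was not tested. The response of the knockout to treatment exceeded that of the wild type by 2.13 ± 1.43, with an interval of -0.78 to 5.05 that includes 0 (limma, adjusted p = 0.592). In 10 of 32 samples, 1 or more in each group, the true signal is known only to be at or below the floor, so these differences can be larger or smaller than measured.

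The Retnlb difference between treated genotypes kept its direction under all 17 alternative settings tried, at 2.65 to 3.54, and with any 1 array left out, at 2.89 to 3.80 with adjusted p at most 0.0328. Under settings that change only the filter, probe set rule, fitted groups, block, prior or threshold it could not move from 3.20. Nor could it move when an untreated array was left out. It lost the call when only the 20 treated arrays were fitted (limma, adjusted p = 0.0672) and with the mean of the colon epithelium list as a covariate (3.54 ± 1.11, limma, adjusted p = 0.102), also with arrays centred on their medians (3.44, adjusted p = 0.0869). Without treated wild-type repeats 1 and 2 it was 3.42 ± 0.93 (limma, adjusted p = 0.0207).

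**Figure D1:**
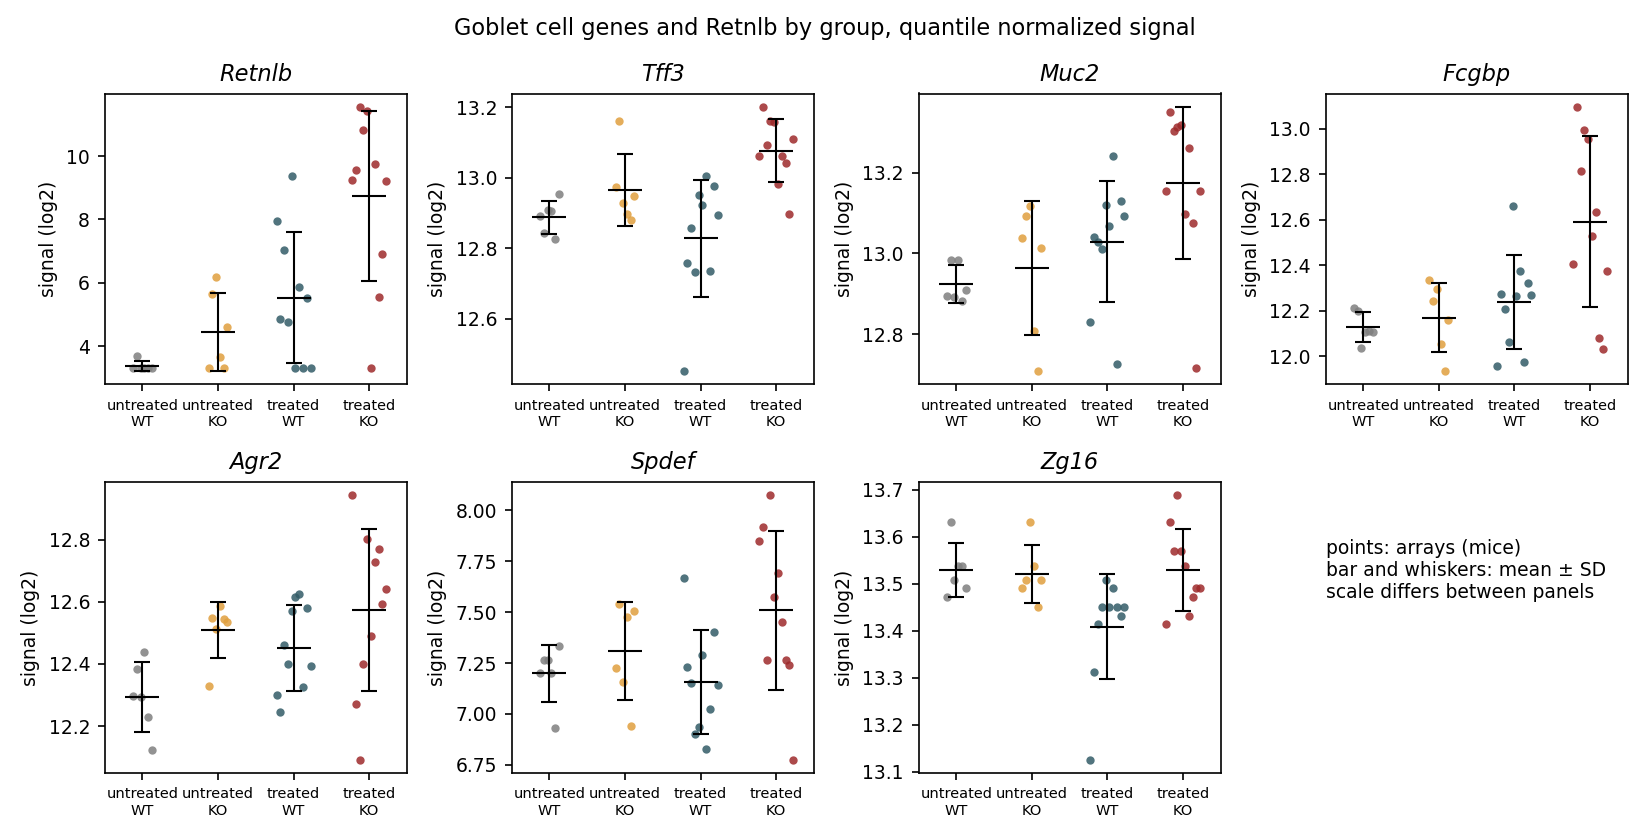
Quantile normalized log2 signal of each of the 7 genes (vertical axes, which differ between panels) in the 4 groups. Points are arrays, and bars with whiskers are group means ± SD. Retnlb spans from the floor at 3.32 to 11.56, while Zg16 spans only 13.13 to 13.69.

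No difference between the treated genotypes passed for the closest measured relatives of Retnlb. Retn, the adipose hormone resistin, was 6.82 ± 1.65 in treated wild-type and 7.28 ± 1.16 in treated knockout samples, a difference of 0.45 ± 0.55 (limma, adjusted p = 0.674). Retnla, the macrophage-associated RELMα, was 8.61 ± 0.56 and 8.20 ± 0.55, a difference of -0.41 ± 0.25 (limma, adjusted p = 0.323). Their intervals, -0.67 to 1.58 for Retn and -0.92 to 0.11 for Retnla, leave room for smaller differences of either sign.

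Between the treated genotypes, all 7 genes had a higher mean in knockout than in wild-type colon, with a median difference of 0.25 against 0 over all genes, and 4 of them passed the test: Retnlb, Tff3, Fcgbp and Zg16. In this comparison limma called 12.8% of all 18193 genes at an adjusted p under 0.05, and called 6.24% of all genes higher in the knockout. Of the 181 genes with a mean over 12, where signals vary least between arrays, 33.7% were called. Tff3, Muc2, Fcgbp, Agr2 and Zg16 belong to those 181, and 3 of these 5 were called. Apart from Retnlb, the differences after quantile normalization ran from 0.12 to 0.36 on the log2 scale, at most a 1.28-fold change. With arrays centred on their medians they ran from 0.28 to 0.54, at most 1.45-fold.

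Tff3, the trefoil peptide that goblet cells secrete with mucin and that aids epithelial repair, had the clearest separation of the 7 between the treated genotypes. Treated wild-type samples ran from 12.45 through a median of 12.88 to 13.004, and treated knockout samples from 12.90 through 13.08 to 13.20. Of the 10 treated knockout samples 8 lay above the highest treated wild-type one. The difference was 0.25 ± 0.05 (limma, adjusted p = 0.00253), and no left-out array removed the call (adjusted p at most 0.00618). After quantile normalization the untreated means lay between the treated ones, at 12.89 ± 0.05 in wild-type and 12.97 ± 0.10 in knockout (n = 6 each), with overlapping samples. On the other scales untreated knockout stood above treated knockout. Its mean was 13.24 against 13.07 as deposited, and 13.21 against 13.13 with arrays centred on their medians. The other trefoil genes, Tff1 and Tff2, are known from the stomach. Tff1 differed by -0.08 ± 0.13 between treated genotypes (limma, adjusted p = 0.769), and Tff2 was at the floor in 24 of 32 samples.

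Muc2 encodes the gel-forming mucin of the colon, and Fcgbp a large protein bound to that mucin in the gel. Muc2 ran from 12.73 through a median of 13.05 to 13.24 in treated wild-type samples and from 12.72 through 13.21 to 13.35 in treated knockout samples. The knockout group held both the lowest sample, repeat 9, and the 5 highest. The difference of 0.15 ± 0.07 did not pass (limma, adjusted p = 0.176), but without repeat 9 of the treated knockouts it was 0.20 and passed (limma, adjusted p = 0.01997). Fcgbp ran from 11.96 through 12.27 to 12.66 in treated wild-type and from 12.03 through 12.58 to 13.098 in treated knockout samples, with 4 of 10 knockout samples above every wild-type one. Its difference of 0.36 ± 0.11 passed (limma, adjusted p = 0.0331). That call was lost without any of treated wild-type repeats 1, 4 or 8 or treated knockout repeats 2, 3, 4 or 5 (differences of 0.30 to 0.34, adjusted p at most 0.0739), and without wild-type repeats 1 and 2 together (0.33, adjusted p = 0.0862).

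Muc2 and Fcgbp varied together from mouse to mouse. Over the 32 arrays their signals correlated at r = 0.87, and at r = 0.81 after each group's mean was removed; Fcgbp was the gene of all 18193 whose pattern was most like that of Muc2. Their promoters are therefore shown side by side, as the 250 bases before the RefSeq start site in mouse build GRCm38.p6, both on the plus strand of chromosome 7, Muc2 at chr7:141690090-141690339 and Fcgbp at chr7:28070986-28071235. Capitals mark matches to the E-box CANNTG, the core motif bound by basic helix-loop-helix factors such as Atoh1, the factor that commits cells to the secretory lineage. The motif reads the same on both strands.
Muc2: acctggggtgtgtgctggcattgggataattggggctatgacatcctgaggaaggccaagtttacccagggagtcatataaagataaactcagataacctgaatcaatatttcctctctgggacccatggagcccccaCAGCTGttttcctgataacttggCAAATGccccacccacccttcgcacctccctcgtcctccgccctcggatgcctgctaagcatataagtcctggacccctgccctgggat
Fcgbp: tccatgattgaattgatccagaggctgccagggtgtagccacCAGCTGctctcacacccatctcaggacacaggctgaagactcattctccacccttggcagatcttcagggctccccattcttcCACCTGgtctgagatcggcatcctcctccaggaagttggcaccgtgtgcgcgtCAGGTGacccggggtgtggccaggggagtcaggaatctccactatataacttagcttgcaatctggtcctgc
Muc2 had 2 E-boxes, CAGCTG at -112 to -107 from the start site and CAAATG at -89 to -84. Fcgbp had 3, CAGCTG at -208 to -203, CACCTG at -125 to -120 and CAGGTG at -72 to -67. The motif is common: 66.2% of 32851 mouse promoter windows of this length held at least 1. Muc2 also held 2 overlapping matches to the CACC box CCACCC, a motif of Krüppel-like factors, and Fcgbp held 1, as did 28.1% of windows on either strand. Muc2 held the TATA element TATAAA, at -174 to -169, as did 12.4% of windows, overlapping 1 of its 2 matches to the CDX core TTTAT, found in 37.3%. Neither window held the FOXA core TGTTTAC. These matches describe the letters of the windows and were not tested for binding.

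Zg16 encodes a lectin-like protein of the mucus that binds Gram-positive bacteria. It was the brightest of the 7 genes, ranking 3 of all 18193 genes by mean. Treated wild-type samples ran from 13.13 through a median of 13.45 to 13.51, and treated knockout samples from 13.41 through 13.51 to 13.69, with 5 of 10 knockout samples above every wild-type one. The difference was 0.12 ± 0.04 (limma, adjusted p = 0.0451), a call that 17 of 32 fits with 1 array left out did not make (adjusted p at most 0.0991), nor did 12 of the 17 alternative settings. A second Zg16 probe set gave 0.16 and the other gave 0.08, so all 3 pointed the same way. When every probe set was tested singly, that second set passed (limma, adjusted p = 0.0446), while the brightest (adjusted p = 0.0518) and the remaining one (adjusted p = 0.159) did not. Treated wild-type samples were also low against untreated wild-type ones, 8 of 10 of them below the lowest untreated sample, a difference of -0.12 ± 0.05 that did not pass (limma, adjusted p = 0.199).

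Agr2 encodes the disulfide isomerase of the endoplasmic reticulum needed to fold Muc2, and Spdef the transcription factor that drives goblet cell maturation. Agr2 was 12.45 ± 0.14 in treated wild-type and 12.57 ± 0.26 in treated knockout samples (n = 10 each), a difference of 0.12 ± 0.08 (limma, adjusted p = 0.357). In untreated samples it ran from 12.12 through a median of 12.30 to 12.44 in wild-type and from 12.33 through 12.54 to 12.59 in knockout mice. Of 6 untreated knockout samples 5 lay above every untreated wild-type one. The difference of 0.22 ± 0.10 had an exact two-sided permutation p of 0.00649 unadjusted and did not pass over all genes (limma, adjusted p = 0.678). The dimmer Agr2 probe set differed by 0.21 ± 0.17 there and by 0.04 ± 0.13 between treated genotypes (limma, adjusted p = 0.881 and 0.957). Spdef, the dimmest goblet gene of the set, was 7.16 ± 0.26 in treated wild-type and 7.51 ± 0.39 in treated knockout samples (n = 10 each). Its difference of 0.35 ± 0.13 did not pass (limma, adjusted p = 0.0666). It passed without treated wild-type repeat 1 (0.41, adjusted p = 0.0301) or treated knockout repeat 9 (0.38, adjusted p = 0.0438) or 10 (0.43, adjusted p = 0.0140).

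**Figure D2:**
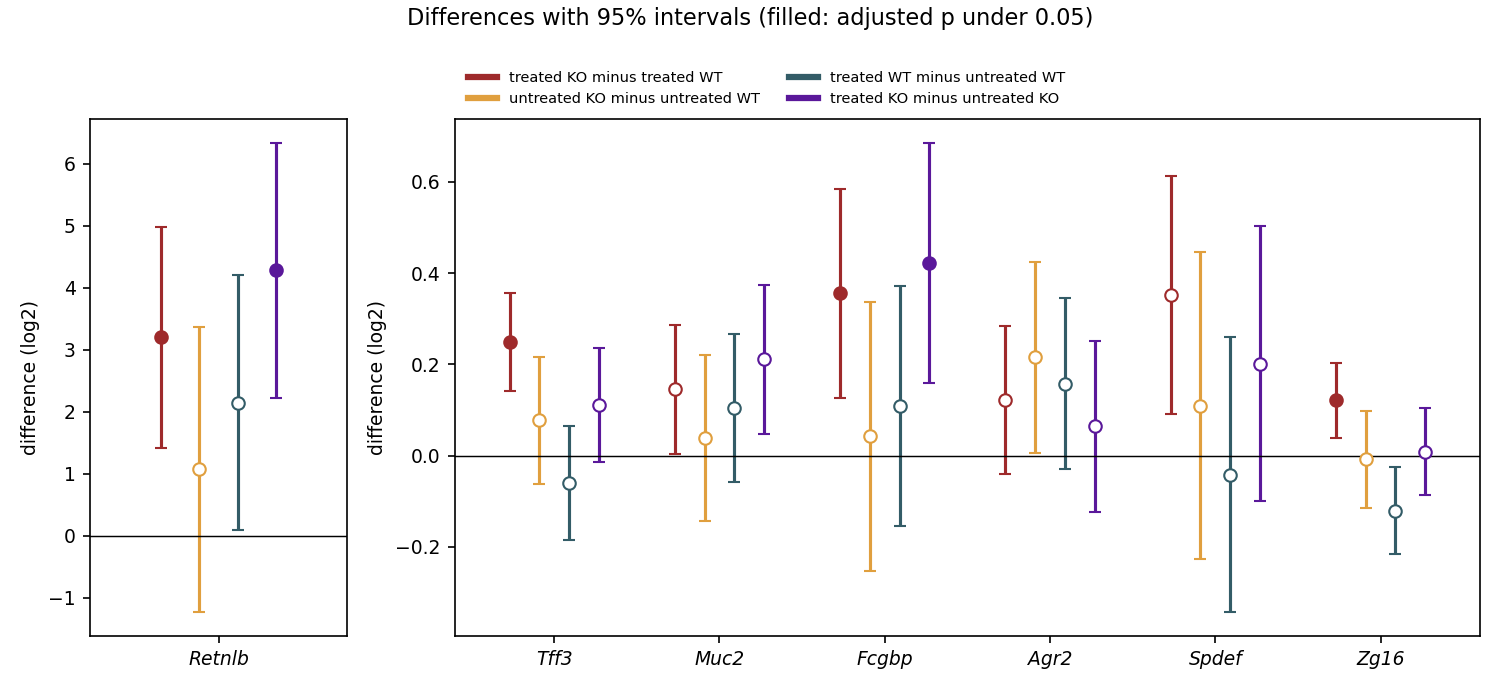
Differences in log2 signal between groups (vertical axis) for each gene, with 95% intervals from the limma fit. Filled points passed at an adjusted p under 0.05: 4 genes between the treated genotypes, and Retnlb and Fcgbp between treated and untreated knockouts.

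In the other comparisons fewer of the 7 genes were called. These comparisons rest on untreated groups of 6 samples and had larger standard errors, for Retnlb 1.01 to 1.43 against 0.87 between treated genotypes. Between untreated genotypes limma called 0.115% of all genes and 0 of the 7. At an unadjusted p under 0.05 there was 1 of 7 (Agr2) in limma, against 7.17% of all genes, and the same 1 in the exact permutation test. Between treated and untreated wild-type mice it called 1.84% of all genes and 0 of the 7. There 2 (Retnlb and Zg16) had an unadjusted limma p under 0.05, against 14.9% of all genes, and 3 (also Agr2) by exact permutation. Between treated and untreated knockouts it called 18.8% of all genes, 8.70% higher, and 2 of the 7, Retnlb and Fcgbp, both higher in treated mice. There 3 of the 7 (also Muc2) had an unadjusted limma p under 0.05, against 31.2% of all genes. By exact permutation Tff3 was added to these. Of the 181 genes with a mean over 12, 48.6% were called there. Fcgbp was 12.17 ± 0.15 (n = 6) in untreated and 12.59 ± 0.37 (n = 10) in treated knockouts, a 1.34-fold difference of 0.42 ± 0.13 (limma, adjusted p = 0.0205), which missed the threshold without untreated knockout repeat 5 (0.38, adjusted p = 0.0603). Muc2 was 0.21 ± 0.08 higher and did not pass (limma, adjusted p = 0.0619), but passed without treated wild-type repeat 8, treated knockout repeat 9 or untreated knockout repeat 3 (differences of 0.21 to 0.26). It also passed with array weights (limma, adjusted p = 0.0442), with the squamous and skeletal muscle lists (adjusted p = 0.0408) or Xist (adjusted p = 0.0494) in the model. The Muc2 difference was not kept on other scales, at 0.06 median centred (limma, adjusted p = 0.785) and -0.02 as deposited (adjusted p = 0.958). Nor did it pass with only the compared groups fitted (limma, adjusted p = 0.161). The difference between the genotypes' responses to treatment was called for 0.0550% of all genes and for 0 of the 7. At an unadjusted limma p under 0.05 there were 0 of 7, against 11.7% of all genes. These comparisons share samples with one another.

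Tff3, Muc2 and Zg16 lie close to the highest signals of the arrays, and their differences depend on how arrays are put on a common scale. Whether signals there are saturated was not tested. Zg16 and Muc2 were within 1 log2 unit of the array's highest signal on 32 of 32 arrays, Tff3 on 31, and Fcgbp and Agr2 on 4 each. Retnlb and Spdef were never that close. The highest signal on an array, as deposited, averaged 13.46 ± 0.18 in treated wild-type, 13.67 ± 0.27 in treated knockout, 13.79 ± 0.13 in untreated wild-type and 13.99 ± 0.32 in untreated knockout samples. Quantile normalization makes that top the same on every array, 13.69, which narrows differences among the brightest genes. The median spread between arrays of a group fell from 0.39 for genes with means under 6 to 0.089 for those over 13.

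On the deposited scale Tff3 differed between treated genotypes by 0.39 (adjusted p = 0.00903), Muc2 by 0.34 (adjusted p = 0.0402), Fcgbp by 0.45 (adjusted p = 0.0166) and Zg16 by 0.37 (adjusted p = 0.0306), all by limma. With arrays centred on their medians the differences were 0.48, 0.42, 0.54 and 0.45, and all 4 passed again (limma, adjusted p = 0.00470, 0.0140, 0.00639 and 0.0117). With Retnlb, 5 of the 7 genes passed on either scale, with 4 after quantile normalization. Of all 18193 genes, limma called 2392 as deposited and 1860 with median centring, with 2333 after quantile normalization. Agr2 and Spdef passed on neither. Signs turned in the comparison with untreated knockouts. There Tff3 was -0.17, Zg16 -0.25, Agr2 -0.18 and Muc2 -0.02 on the deposited scale, each opposite in sign to its quantile normalized value, and Fcgbp was 0.26 and lost its call (limma, adjusted p = 0.227). Retnlb passed on all 3 scales in both comparisons. Centring on medians moved the median of all genes by 0.07 between treated genotypes and raised the share of higher calls from 48.7% to 74.7%.

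**Figure D3:**
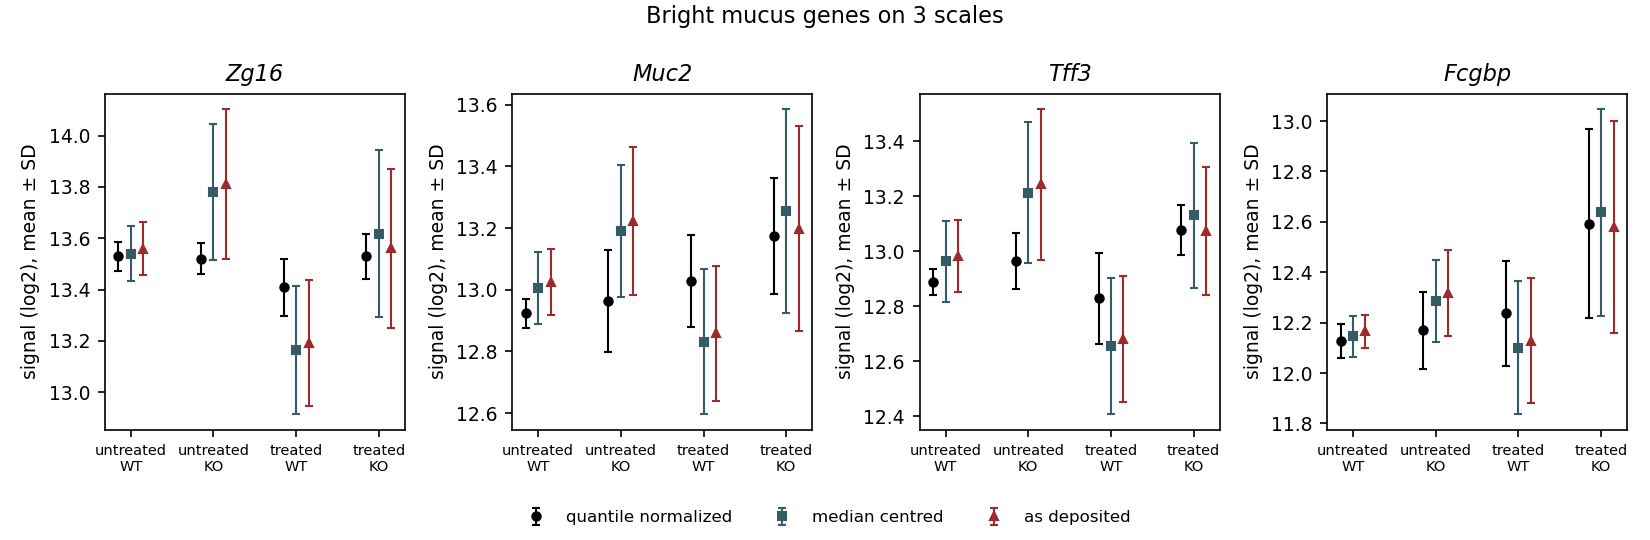
Mean ± SD of log2 signal (vertical axes, which differ between panels) for Zg16, Muc2, Tff3 and Fcgbp in the 4 groups on 3 scales. Treated knockout lies above treated wild-type on each scale, while untreated knockout moves up against the other groups on the deposited and median centred scales.

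Markers of the colon epithelium as a whole were highest on average in treated knockout samples after quantile normalization. The list mean of 9 genes was 11.47 ± 0.15 (11.13 to 11.66) in treated wild-type, 11.72 ± 0.17 (11.48 to 11.96) in treated knockout, 11.45 ± 0.05 (11.36 to 11.50) in untreated wild-type and 11.44 ± 0.08 (11.33 to 11.56) in untreated knockout samples. Between treated genotypes 4 of the 9 were called higher and 0 lower, or 7 higher with arrays centred on their medians and 5 as deposited. Against untreated knockouts 7 were called higher, but 2 on the median centred and 2 on the deposited scale. With the epithelium list mean as a covariate 0 of the 7 goblet genes passed between treated genotypes. Tff3 differed by 0.14 (limma, adjusted p = 0.236), Fcgbp by 0.17 (adjusted p = 0.603) and Zg16 by 0.05 (adjusted p = 0.680), while Retnlb was no smaller at 3.54. Retnlb had an unadjusted limma p of 0.00352 there and did not pass, whereas Zg16 passed in the main fit at 0.00554. The unadjusted p needed for a call was thus lower with this covariate, for all genes. Over the 17 alternative settings the count over all genes ran from 261 to 4187, where the main fit called 2333. Counts of the 7 under each setting are to be read against such shifts over all genes. Without treated wild-type repeats 1 and 2, the samples with the most squamous signal, a setting chosen after seeing the data, Tff3 differed by 0.19 (limma, adjusted p = 0.00730) and 3 of the 7 passed. Zg16 (adjusted p = 0.169) and Fcgbp (adjusted p = 0.0862) lost their calls there and Spdef gained one (adjusted p = 0.0379). Absorptive colonocyte markers, the other main cell type of the colon surface, had list means of 11.18 ± 0.20 in treated wild-type and 11.54 ± 0.21 in treated knockout samples. Of these 9 genes 8 were higher in the knockout, with a median difference of 0.24, and 2 were called, or 5 with arrays centred on their medians and 4 as deposited. Enteroendocrine markers, another secretory cell type, had list means of 7.95 to 8.79 in treated wild-type and 8.46 to 9.58 in treated knockout samples, and 4 of 7 were called higher in the knockout. Goblet cell markers, the goblet genes above with Clca1 and Atoh1, had list means of 11.61 ± 0.09 and 11.75 ± 0.13 in these groups. Of these 8 genes 7 were higher and 1 lower in the knockout, with a median difference of 0.15. Called were 3 of the 8, against 12.8% of all genes. RNA integrity, read as the signal of 3' minus 5' control probe sets, ran from -0.06 to 0.04 in treated wild-type and -0.10 to 0.04 in treated knockout samples. With it as a covariate Fcgbp differed by 0.30 (limma, adjusted p = 0.0838) and Zg16 by 0.11 (adjusted p = 0.0940), and 2 of the 7 passed. Squamous markers were lower in treated knockout than in treated wild-type mice for 11 of 11 genes, 0 of them called by limma and 5 at an unadjusted p under 0.05. With squamous and skeletal muscle list means added to the model Fcgbp differed by 0.27 (limma, adjusted p = 0.148) and Zg16 by 0.09 (adjusted p = 0.180), and 2 of the 7 passed. Smooth muscle markers averaged 11.86 ± 0.29 and 11.86 ± 0.53 in the treated groups, and with them as a covariate 4 of the 7 passed. The part of these measures in the differences was not tested.

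How closely the 7 genes followed each other differed from pair to pair. With group means removed, over the 32 arrays, Tff3 correlated with Muc2 at r = 0.72, with Fcgbp at 0.63 and with Zg16 at 0.60. Retnlb correlated with Fcgbp at 0.55 and with Muc2 at 0.46, and Agr2 with none of the others above 0.18. Spdef reached 0.31 with Fcgbp. The genes most like Retnlb over all 32 arrays were Mpp1, a membrane scaffold protein (r = 0.88, 0.72 with group means removed), the actin-binding Tmsb10 (0.88 and 0.72) and the potassium channel Kcnk6 (0.87 and 0.75). Next to Fcgbp, Muc2 was most like the chemokine Cxcl16 (0.83 and 0.77) and the enteroendocrine granule protein Chgb (0.82 and 0.75). Zg16 was most like Prkacb, a catalytic subunit of protein kinase A (0.82 and 0.77), Tnrc18 (0.77 and 0.78) and the kinase Camk1 (0.74 and 0.68). All these values share the arrays and their normalization, and are descriptions.

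**Figure D4:**
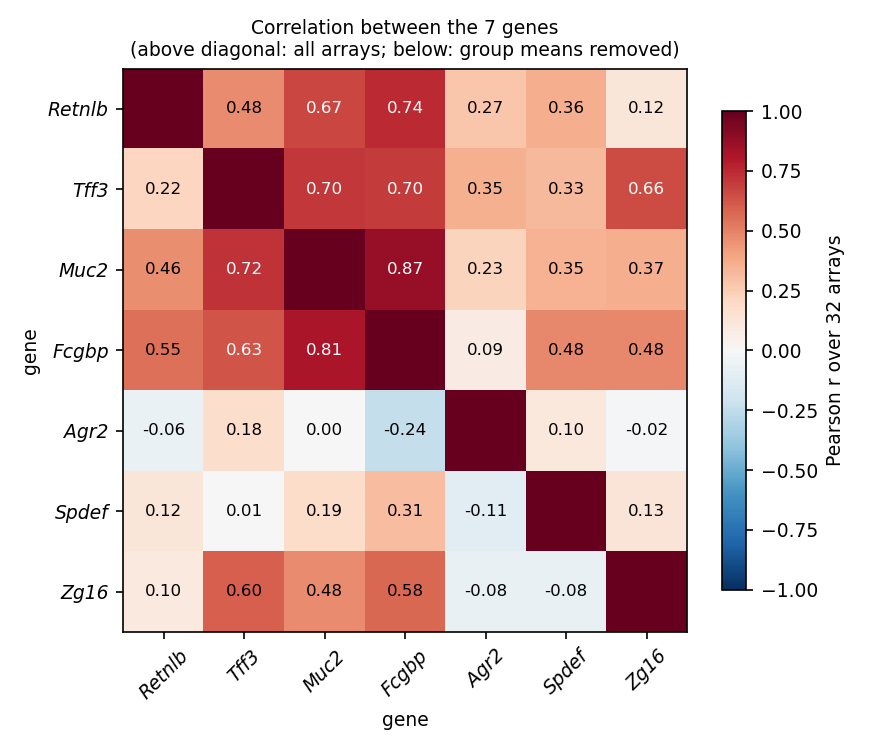
Pearson correlation of log2 signal between pairs of the 7 genes over 32 arrays, above the diagonal as measured and below it with group means removed. Muc2 and Fcgbp are the closest pair, and Agr2 stands apart from the rest.

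Of 18 other measured genes of goblet cells and the mucus layer, secreted proteins and others, 5 were higher and 0 lower in treated knockout than in treated wild-type mice, with a median difference of 0.20. Over all genes 12.8% were called in this comparison, 6.24% of all genes higher, and the counts of this list and the next 4 are to be read against those shares. Guca2a, which encodes guanylin, a peptide that stimulates fluid secretion, rose from 11.27 to 12.31 (1.04 ± 0.19, limma, adjusted p = 0.000669), Capn9, a gut calpain, by 0.67 ± 0.12 (adjusted p = 0.000759) and Sytl2, a granule docking protein, by 0.46 ± 0.12 (adjusted p = 0.0108). Lypd8, a bacteria-binding protein and the brightest of the list, differed by 0.04 ± 0.02 (adjusted p = 0.365). Against untreated knockouts 5 were higher and 2 lower in treated knockouts. The lectin gene Reg4 fell by 1.70 on the log2 scale (adjusted p = 0.00124) and the goblet cell bicarbonate channel Best2 by 1.01 (adjusted p = 0.00543), while Guca2a rose by 0.94 (adjusted p = 0.00287).

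Of 26 measured genes that build the mucin's sugars and fold its chain, 6 were higher and 1 lower in treated knockout than in treated wild-type mice. Chst4, a sulfotransferase, was 7.38 against 8.60 (1.22 ± 0.21, limma, adjusted p = 0.000385), the fucosyltransferase Fut2 8.65 against 9.38 (0.72 ± 0.16, adjusted p = 0.00297) and the branching enzyme Gcnt1 8.90 against 9.41 (0.51 ± 0.17, adjusted p = 0.0394). Galnt7, which starts O-glycan chains, differed by -0.15 ± 0.08 (adjusted p = 0.262). Against untreated knockouts 6 were higher and 4 lower, with Fut2 up by 1.19 (adjusted p = 5.58e-05), Chst4 up by 1.04 (adjusted p = 0.00267) and the sialyltransferase St3gal6 lower (-0.94, adjusted p = 4.78e-05). St3gal6 was the 1 gene of this list called between treated and untreated wild-type mice (-0.59, adjusted p = 0.0254), a call that was not made with arrays centred on their medians (adjusted p = 0.0905).

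Transcription factors of the secretory lineage and the Notch pathway together set how many cells become goblet cells. Of 17 measured, 1 was higher in treated knockout than in treated wild-type mice, a share no larger than that over all genes. It was the intestinal identity factor Cdx2 (0.57 ± 0.15, limma, adjusted p = 0.0113), which is also in the epithelium list. Klf4, a factor of goblet cell differentiation and the brightest of the list, differed by -0.02 ± 0.06 (adjusted p = 0.876). Against untreated knockouts 2 were higher and 4 lower in treated knockouts. Neurog3, the enteroendocrine factor, was lower by 1.04 (-1.04, adjusted p = 0.00975) and Foxa2 by 0.74 (-0.74, adjusted p = 0.0140), while Cdx2 was 0.75 higher (adjusted p = 0.00248). Atoh1, singled out after its values were seen, was 9.09 in untreated and 8.45 in treated knockouts (-0.64 ± 0.17, adjusted p = 0.00883). With arrays centred on their medians Foxa2 (adjusted p = 0.0537) and Atoh1 (adjusted p = 0.0573) missed the threshold and 1 of the 17 was lower. In wild-type mice 1 of 17 was called between treated and untreated samples, the Notch ligand Dll1 (-0.41, adjusted p = 0.0208), a call not made on the median centred scale (adjusted p = 0.0588).

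Of 15 genes for granule release and the fluid secretion that unfolds mucin, 3 were higher and 1 lower in treated knockout than in treated wild-type mice. The motor Myo5b differed by 0.36 ± 0.09 (limma, adjusted p = 0.0121) and the syntaxin Stx3 by 0.25 ± 0.06 (adjusted p = 0.00805), and Scin, an actin-severing protein, by -0.02 ± 0.12 (adjusted p = 0.960). The chloride cotransporter Slc12a2 differed by -0.42 ± 0.14 (adjusted p = 0.0485), but not on the deposited scale (adjusted p = 0.0849) or the median centred one (adjusted p = 0.238). Slc12a2 also was lower after treatment, at -0.73 in wild-type (adjusted p = 0.0167) and -0.996 in knockout mice (adjusted p = 0.000131). The chloride channel Cftr was 9.06 in untreated and 7.57 in treated knockouts (-1.496 ± 0.29, adjusted p = 0.000619), where 3 of the 15 genes were higher and 2 lower.

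Of 17 genes of type 2 and IL-22 signalling, pathways that act on goblet cells and on Retnlb, 4 were higher and 1 lower in treated knockout than in treated wild-type mice. Among the 17, 3 were at the floor on all arrays and have no measured signal, and 5 more were at the floor on some. Il4ra, the receptor chain shared by IL-4 and IL-13, was 5.76 against 6.59 (0.83 ± 0.27, limma, adjusted p = 0.0375), which missed the threshold on the deposited scale (0.73, adjusted p = 0.0937). Il13ra2, the decoy receptor for IL-13, was 5.59 against 4.82 (-0.77 ± 0.21, adjusted p = 0.0124). The cytokine Il9, also counted as higher, was at the floor in 10 of 10 treated wild-type samples and above it in 5 of 10 treated knockout samples, up to 4.44, so its difference has no measured size and its test no wild-type spread. Il13ra1 differed by 0.17 ± 0.08 (adjusted p = 0.166). Against untreated knockouts 4 were higher and 0 lower, with Il4ra at 1.37 (adjusted p = 0.00224), Stat3 at 0.61 (adjusted p = 0.00106) and Il13ra1 at 0.44 (adjusted p = 0.00106). Over the 93 genes of these 5 lists, limma called 22 between treated genotypes and 32 between treated and untreated knockouts, where it called 12.8% and 18.8% of all genes. It called 3 between treated and untreated wild-type mice, against 1.84% of all genes. It called 0 between untreated genotypes, with 2 at an unadjusted p under 0.05, as 7.17% of all genes were. For the difference between the responses it called 0, with 25 at an unadjusted p under 0.05, as 11.7% of all genes were. With arrays centred on their medians the calls between treated genotypes were 6 higher and 0 lower among the other goblet and mucus genes, 9 and 0 among mucin sugar and folding genes, 2 and 0 among transcription factors, 4 and 0 among release genes and 5 and 1 among signalling genes. On the deposited scale they were 5 and 0, 6 and 0, 2 and 1, 3 and 0, and 3 and 1, in the same order. Between treated and untreated knockouts they were, again in that order, 5 and 2, 6 and 1, 3 and 1, 4 and 2, and 7 and 0 with median centring, and 4 and 2, 6 and 4, 2 and 5, 3 and 2, and 4 and 0 as deposited. Of all 18193 genes, limma called 1860 between treated genotypes and 2821 between knockouts with median centring. As deposited these counts were 2392 and 3387. Retnlg, Gcnt4 and Il22 had no probe set assigned to them alone.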

How the data were processed

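Per the labels, distal colon RNA of 32 mice was amplified, biotin-labelled and hybridised to Affymetrix mouse arrays. The deposited values are log2 probe set signals. By their values, the authors scaled each array to 1 trimmed mean (150.9 to 151.3 on the linear scale, 2% trimmed at each end) and raised signals under 10 to 10, log2 3.32, where 18.7% to 23.9% of probe sets sit. Software and version are not given in the sources used here. Of 45101 probe sets, 64 controls were left out and 34945 map to 1 gene symbol. Arrays were quantile normalized, and 18193 genes, each by its brightest probe set, were fitted in 1 model of 4 group means over 32 arrays (limma 3.58.1, R 4.3.3, two-sided, Benjamini-Hochberg over all genes, called at adjusted p under 0.05). Repeats are biological samples, and the p-values rest on 1 spread per gene pooled over the 4 groups. For Retnlb the groups' own SDs ran from 0.16 to 2.68, so its p-values do not measure the spread of the compared samples alone. The number of arrays limits precision, as does the floor. Whether signals near the top of the arrays are limited too was not tested. The fit was also run on simulated data with 1 spread per gene, equal in all groups. That differs from Retnlb, so the simulation does not bear on its p-values. Tried as alternatives were median centring, the deposited scale, a filter on dim genes, other probe set rules, array weights, a trended prior, covariates (epithelium, smooth muscle, squamous and skeletal muscle, Xist, RNA integrity), a replicate block, a threshold of 0.01 and leaving out each array. Repeat numbers are not described as pairs. Same-numbered arrays of the treated groups correlated at -0.21 to 0.36 after group means were removed, over 0.1 in 2 of 10 pairs. Those of treated and untreated knockouts correlated at -0.18 to 0.44. Such correlations cannot show that samples were unpaired.

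The genes named are the 7 genes, their measured resistin and trefoil relatives, up to 3 called genes and the brightest uncalled gene of each list in each comparison, the 3 genes most like Retnlb, Muc2 and Zg16, and Myd88. Members and lists were chosen with earlier results of these data known. Promoters came from a RefSeq table, which held 4 of the 7 genes.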

Additional observations from a re-analysis of the deposited data

Results flagged for a closer look

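In 7 of 28 sets of 1 gene in 1 group, the highest or lowest sample stood apart from the others by more than Dixon's 95% limit. Chance flags about 1 in 20 groups. Retnlb in untreated wild-type repeat 2 was 3.70, with every other sample at the floor, 3.32, so that any value above the floor would have stood apart. Tff3 was 12.45 in treated wild-type repeat 1, against 12.73 in the next sample, and 13.16 in untreated knockout repeat 2, against 12.97. Muc2 was 12.72 in treated knockout repeat 9, against 13.07. Agr2 was 12.33 in untreated knockout repeat 1, against 12.51. Spdef was 6.93 in untreated wild-type repeat 5, against 7.20. Zg16 was 13.13 in treated wild-type repeat 1, against 13.31. Treated wild-type repeat 1 is also the sample with the highest squamous list mean, 11.26, and the lowest epithelium list mean, 11.13.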

How the results depend on the processing

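Called genes of the 7 are counted first, 4 between treated genotypes and 2 between treated and untreated knockouts. Between treated genotypes the count was 1 with only the compared groups fitted or at a threshold of 0.01, 2 with the RNA integrity or the squamous and skeletal muscle covariates, 0 with the epithelium covariate on either scale, and 2 to 6 with 1 array left out. Between treated and untreated knockouts it was 1 on the median centred or deposited scale, with only the compared groups, with the epithelium covariate or at 0.01, and 1 to 3 with 1 array left out. It was 3 with array weights, the squamous and skeletal covariates, Xist, or median centring with the epithelium covariate. The other comparisons had 0 under every setting run. With the replicate block the counts were 4 and 3; the block ended the Zg16 call between treated genotypes (adjusted p = 0.0509), made those of Spdef there (0.0394) and Muc2 against untreated knockouts (0.0363), and turned Spdef to 0.087 between treated and untreated wild types. Signs turned only in differences that were not called as reported. Between untreated genotypes Zg16 became 0.24 median centred, 0.25 as deposited, 0.035 as the mean of its probe sets and 0.17 median centred with the epithelium covariate (an alternative chosen after seeing the data), and -0.031 to 0.012 with arrays left out, and Fcgbp -0.023 with the RNA integrity covariate. Between treated and untreated wild types, median centred and as deposited, Muc2 was -0.17 and -0.17, Fcgbp -0.045 and -0.038, Agr2 -0.024 and -0.017. With the squamous and skeletal covariates Tff3 was 0.025 and Spdef 0.073. Between treated and untreated knockouts, median centred and as deposited, Tff3 was -0.082 and -0.17, Agr2 -0.10 and -0.18, Zg16 -0.16 and -0.25, and Muc2 -0.023 as deposited. With the epithelium covariate Tff3 was -0.0099, Agr2 -0.025, Spdef -0.057 and Zg16 -0.069. Zg16 was also -0.032 as the mean of its probe sets, -0.0095 with array weights, -0.00026 with RNA integrity, -0.020 with smooth muscle, and -0.0089 to 0.031 with arrays left out. Median centred with the epithelium covariate, Tff3 was -0.28 (adjusted p = 0.0179) and Zg16 -0.37 (0.00607), both called by limma, Muc2 -0.12 and Agr2 -0.30 against untreated knockouts, Agr2 -0.086 between treated genotypes, Muc2 -0.093 and Spdef 0.034 between treated and untreated wild types, and the difference of responses was -0.059 for Tff3, -0.022 for Muc2 and -0.089 for Zg16. The cause of these shifts was not tested. Counts over all genes ran from 261 to 4187 between treated genotypes, where 2333 were called, and from 1830 to 6205 between treated and untreated knockouts, where 3416 were, from 67 to 1466 between treated and untreated wild types (334), from 13 to 49 between untreated genotypes (21) and from 0 to 258 for the difference of responses (10). Readings are limited by the floor for Retnlb, and lie near the top of the array for Zg16, Muc2 and Tff3.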
